A study of Mus musculus with 6 samples.

Results

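The hypoxia-inducible factor (HIF) pathway was followed through 10 genes in the RNA of acute myeloid leukemia (AML) blasts. The genes were chosen by name: the oxygen-regulated alpha subunits Hif1a and Epas1, their partner Arnt, the prolyl hydroxylases Egln1, Egln2 and Egln3, the ubiquitin ligase adaptor Vhl, and the hypoxia targets Vegfa, Ndrg1 and Bnip3. All 10 were found among the 53458 annotated genes, and all 10 were among the 22170 genes with enough reads to be tested. Blasts of 3 Cebpa-/p30 Tet2+/+ mice (mice 19, 23 and 24) were compared with blasts of 3 Cebpa-/p30 Tet2-/- mice (mice 5, 7 and 8), with 1 library a mouse, to ask how loss of TET2 alters expression when CEBPA is mutated. Both groups carry the same Cebpa lesion, a deleted allele beside an allele that makes only the short p30 form of the myeloid transcription factor CEBPA, and by their labels they differ in Tet2. The labels give the strain as C57BL/6, and the study names C57BL/6J donors and C57BL/6J.SJL recipients. Per the study's methods, bone marrow of individual donors with floxed alleles was transplanted into lethally irradiated female congenic recipients, and the floxed alleles were deleted with poly(I:C) through Mx1-Cre, a Cre driven by an interferon-inducible promoter that is not restricted to one blood cell type. Live donor-derived cells negative for CD3, B220 and Ter119 were then sorted from bone marrow, a sort against lymphoid and erythroid cells but not against neutrophils or monocytes. Of their markers some RNA remained, with 7 erythroid markers at 352 TPM in Tet2+/+ mouse 19 against between 12.2 and 38.3 TPM in the other mice, and Jchain at 3090 reads in mouse 23. The age of the mice at collection is not given in the labels. The study collected marrow from moribund mice and reports a shorter latency with Tet2 loss. Time since transplantation may thus differ between the genotypes and cannot be told apart from Tet2 here. Each mouse is taken as 1 leukemia, and the labels name no batch. The study describes several recipients for each donor, and the labels do not name the donor of a mouse. Mice of a genotype may therefore share a donor.

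In cells with enough oxygen, the EGLN enzymes hydroxylate prolines of the HIF alpha subunits, VHL binds the hydroxylated protein, and the proteasome destroys it. When oxygen is scarce the alpha subunit escapes, pairs with ARNT and binds short DNA elements with the core ACGTG or GCGTG near target genes. The EGLN enzymes and TET2 belong to the same large class of dioxygenases, which use oxygen, iron and 2-oxoglutarate. HIF activity is set mainly at the level of the alpha protein, which RNA-seq does not measure, so the RNA values below describe the transcripts of the regulators and of their targets. Bone marrow is a low-oxygen tissue, and HIF1A and EPAS1 (HIF-2 alpha) are both known in blood stem cells and in myeloid leukemia.

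The libraries held between 13036643 and 32855343 estimated reads, and that of mouse 5 was the deepest. Levels are given as normalized read counts (CPM, scaled to library size with TMM factors) for comparisons between mice, and genes are compared with each other as TPM, which accounts for transcript length. Differences are log2 fold changes of Tet2-/- against Tet2+/+ with the standard error (SE) from edgeR's quasi-likelihood test, and adjusted p is the Benjamini-Hochberg value over all 22170 genes with a threshold of 0.05. An exact two-sided permutation test of 3 mice against 3 cannot give a p below 0.1. The biological coefficient of variation between mice of a genotype was 43.6%. In counts simulated for this comparison edgeR found 49% of the genes whose log2 change had been set to 2 and 2% of those set to 1, and the log2 fold changes of the 10 genes were all under 1. DESeq2 found 80% and 13% of them, but it also called 51 unchanged genes there, and 44 genes in counts simulated without any change. Tet2 itself, counted over the whole gene, had between 73.6 and 98.4 CPM in Tet2+/+ and between 79.4 and 111 in Tet2-/- blasts, and a sum over the gene cannot show the loss of a floxed exon. Cebpa had 140, 194 and 287 CPM in Tet2+/+ and 158, 75.7 and 124 CPM in Tet2-/- mice, which overlap, with a log2 fold change of -0.80 (SE 0.35) and an adjusted p of 0.632 by edgeR. Among markers, 8 myeloid blast genes summed to between 3409 and 3578 TPM in Tet2+/+ and between 2979 and 3758 in Tet2-/- mice, and 2 of the 8 were lower in Tet2-/- without overlap, beside 7.94% of all genes. These were Cd34, a progenitor marker, with 170, 310 and 193 CPM in Tet2+/+ against 90.0, 32.1 and 132 CPM in Tet2-/- mice, and Mpo, the granule peroxidase, with a fold of 0.711. The rest of the 8 overlapped. Elane, Itgam, Ptprc and Prtn3 had log2 fold changes of 1.19, 0.76, 0.17 and 0.065, and Kit and Ctsg of -0.61 and -0.064. The part of these myeloid markers in the values of the 10 genes was not tested. Of 6 endothelial markers, Emcn, Tek and Sox17 had under 10 reads in every mouse, Cdh5 at most 11 and Tie1 72 in mouse 7 and at most 7 elsewhere, while Pecam1, which myeloid cells also express, had between 1092 and 4334. In bulk RNA, fewer cells of a type and less RNA per cell cannot be told apart.

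The sequences at which HIF can act, and those that tell the transcripts apart, are shown before the values. The promoter table of RefSeq (build GRCm38.p6) gives 250 bases before to 50 after a start site and held 10 promoters of 8 of the genes. Epas1 and Ndrg1 had no entry. The core letters ACGTG and GCGTG were searched on both strands, with overlapping matches counted separately, so that CACGTG, which is also the E-box bound by other factors, counts as 2 matches. At least 1 match was found in 8 of the 10 promoters, beside 43.8% of all 32851 promoters in the table. At least 4 matches were found in 2 of the 10, one each of Egln2 and Bnip3, beside 3.86% of all promoters. No match lay in the promoter of Vhl or in the upstream promoter of Vegfa. A match is a description of letters and not a binding site. The promoters of Egln2 and Bnip3 are shown for their number of matches. That of Egln3 is shown because the gene is a hydroxylase that is itself a hypoxia target. That of Hif1a is shown because the annotated start of its transcript Hif1a-201 lies in it. Capitals mark every match.
Egln2, chr7:27166753-27167052, minus strand, with 6 matches: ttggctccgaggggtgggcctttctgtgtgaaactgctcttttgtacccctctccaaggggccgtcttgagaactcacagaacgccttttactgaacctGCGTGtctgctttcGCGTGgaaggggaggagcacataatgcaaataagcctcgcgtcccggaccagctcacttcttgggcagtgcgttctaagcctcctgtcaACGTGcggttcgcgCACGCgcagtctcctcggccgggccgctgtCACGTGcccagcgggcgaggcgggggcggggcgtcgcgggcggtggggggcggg
Bnip3, chr7:138909457-138909756, minus strand, with 5 matches: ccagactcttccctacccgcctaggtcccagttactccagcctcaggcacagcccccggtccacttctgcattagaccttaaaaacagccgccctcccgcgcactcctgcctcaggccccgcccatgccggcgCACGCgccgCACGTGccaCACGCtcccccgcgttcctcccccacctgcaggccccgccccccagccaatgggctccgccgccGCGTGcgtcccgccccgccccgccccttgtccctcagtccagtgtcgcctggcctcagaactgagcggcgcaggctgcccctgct
Egln3, chr12:54203825-54204124, minus strand, with 1 match: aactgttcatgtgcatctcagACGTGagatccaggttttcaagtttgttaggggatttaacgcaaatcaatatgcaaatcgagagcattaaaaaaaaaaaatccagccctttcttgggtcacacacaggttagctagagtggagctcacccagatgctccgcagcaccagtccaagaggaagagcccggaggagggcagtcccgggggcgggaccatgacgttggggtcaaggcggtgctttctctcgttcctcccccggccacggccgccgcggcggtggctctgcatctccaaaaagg
Hif1a, chr12:73907617-73907916, plus strand, with 3 matches: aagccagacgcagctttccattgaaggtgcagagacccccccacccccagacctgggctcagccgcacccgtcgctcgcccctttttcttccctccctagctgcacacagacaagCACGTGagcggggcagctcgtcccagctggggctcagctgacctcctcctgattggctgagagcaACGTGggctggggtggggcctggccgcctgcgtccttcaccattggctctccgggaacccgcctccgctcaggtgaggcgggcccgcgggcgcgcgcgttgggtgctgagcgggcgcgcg

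The members were expressed at very different levels. On the TPM scale, averaged over the 6 mice, Ndrg1 was the highest at 82.7 TPM and was above Vegfa, the next, in 6 of 6 mice. Vegfa had 33.5, Vhl 27.1, Hif1a 21.0, Bnip3 15.2, Arnt 13.8, Egln2 12.5, Egln3 8.89 and Egln1 6.21 TPM. Epas1 was the lowest by far at 0.0770 TPM. Of neighbours in this order, Vegfa exceeded Vhl in 4 of 6 mice, Vhl exceeded Hif1a in 4, and the pairs from Bnip3 to Egln1 were in order in 5 of 6 mice each, so these neighbours were not separated beyond their spread. Hif1a exceeded Bnip3 in 6 of 6 mice. These sums include short annotated transcripts to which few reads give a large TPM. Counting only the transcript with the most reads, Ndrg1 was still first, with 22.6 TPM, and Epas1 was still last, while Vegfa moved from the second to the ninth place.

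**Figure D1:**
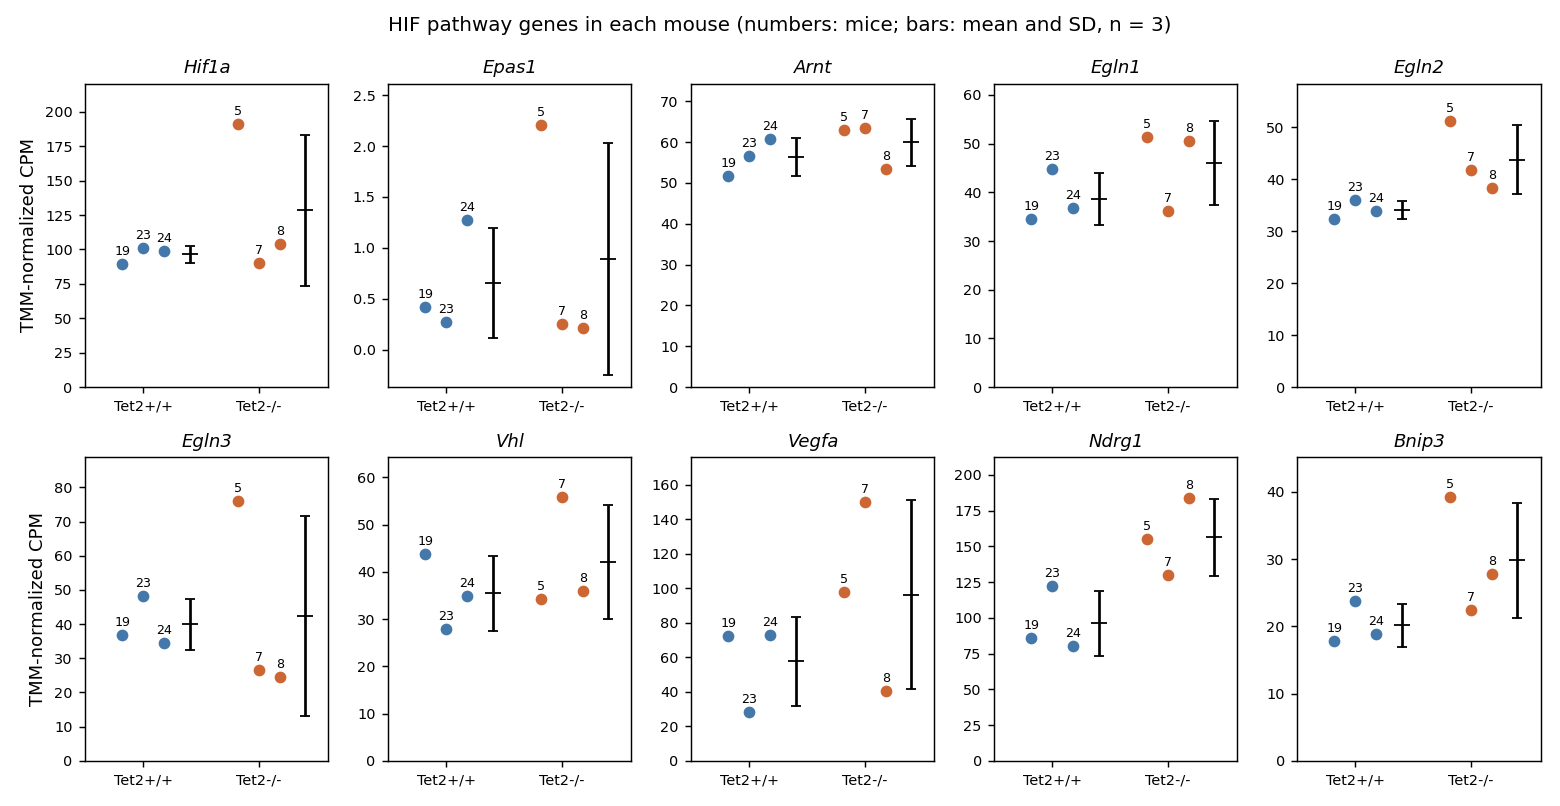
TMM-normalized CPM (vertical axes, each with its own scale) of the 10 HIF pathway genes in every mouse, with Tet2+/+ mice in blue and Tet2-/- mice in orange, mice named by number, and the mean and SD of 3 mice beside them. Ndrg1 and Egln2 were higher in every Tet2-/- mouse than in any Tet2+/+ mouse, and mouse 5 was the highest of the 6 for 6 of the genes.

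None of the 10 genes passed the threshold in either direction, where 0.0451% of all genes tested did, all of them lower in Tet2-/- blasts. At an unadjusted p under 0.05 edgeR counted 1 of the 10, Ndrg1, which was higher, beside 8.11% of all genes in either direction. This count was 0 under scaling by library size alone, without mouse 19 and without mouse 24, and 2 without mouse 5 (1 higher and 1 lower), without mouse 7 and without mouse 8 (both higher in each). DESeq2, run on the same counts, also called 0 of the 10. The log2 fold change was above 0 for 10 of 10 genes with a median of 0.39, beside 50.1% of all genes and a median of 0.0016. For 2 of the 10, Ndrg1 and Egln2, the CPM values of the genotypes did not overlap and were higher in Tet2-/-, beside 6.41% of all genes. Under scaling by library size alone, which shifts the median of all genes to -0.17, the median of the 10 was 0.21 and 8 of 10 were above 0.

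The alpha subunits differed more from each other than between genotypes. Hif1a (ENSMUSG00000021109, chromosome 12 of GRCm38 from 73901375 to 73947530) encodes the broadly expressed alpha subunit. It had 89.4, 101 and 99.2 CPM in Tet2+/+ mice 19, 23 and 24 and 191, 90.0 and 104 CPM in Tet2-/- mice 5, 7 and 8. Mouse 5 stood alone above the remaining 5 mice, which lay between 89.4 and 104 CPM. The means were 96.6 ± 6.37 (SD, n = 3) and 129 ± 54.9 (SD, n = 3), with a log2 fold change of 0.41 (SE 0.29) and an adjusted p of 0.764 by edgeR. Without mouse 5 the log2 fold change was -0.002 (SE 0.17).

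Epas1 (chromosome 17 of GRCm38 from 86753700 to 86833410), the alpha subunit best known from endothelium and from erythropoietin-producing cells, was close to the limit of detection. It had 7, 5 and 18 estimated reads in mice 19, 23 and 24 and 70, 4 and 4 reads in mice 5, 7 and 8, which is 0.419, 0.268 and 1.27 CPM against 2.21, 0.257 and 0.217 CPM. The genotypes overlapped, and mouse 5 was again the highest. Its log2 fold change of 0.53 (SE 1.03) became -1.43 (SE 0.89) without mouse 5, so the sign rests on that mouse. In mouse 5 the endothelial markers Cdh5 and Tie1 had 4 and 7 reads, Emcn, Tek and Sox17 had 0, and Pecam1 had 4334. The cells from which the Epas1 reads of mouse 5 came were not tested. In TPM, Hif1a exceeded Epas1 by 401, 721 and 150 times in mice 19, 23 and 24 and by 162, 537 and 945 times in mice 5, 7 and 8. The log2 ratio of Epas1 to Hif1a averaged -8.46 ± 1.15 (SD, n = 3) in Tet2+/+ and -8.76 ± 1.30 (SD, n = 3) in Tet2-/- mice, a difference of -0.31 (exact permutation test, two-sided, p = 0.7). The difference changed sign to 0.31 without mouse 24 and to 0.25 without mouse 8, and was -1.02 without mouse 5. Of related genes, Hif3a, which encodes a further alpha subunit with inhibitory splice forms, had between 2.32 and 9.15 CPM. Arnt2, the neuronal partner related to Arnt, had between 3 and 5 reads in every mouse.

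Arnt (chromosome 3 of GRCm38 from 95434388 to 95497240), the constitutive partner without which neither alpha subunit binds DNA, was the steadiest of the 10 genes. It had 51.6, 56.6 and 60.8 CPM in Tet2+/+ mice and 63.0, 63.5 and 53.4 CPM in Tet2-/- mice 5, 7 and 8. The groups overlapped and mouse 5 did not stand out. The log2 fold change was 0.089 (SE 0.15) and turned to -0.094 (SE 0.17) under scaling by library size alone.

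Hif1a reads were assigned mainly to 2 transcripts with different annotated starts. Hif1a-201 and Hif1a-202 together took between 97.4% and 99.4% of the reads of the gene. Hif1a-202 begins at position 73901375 and Hif1a-201 at 73907904 of chromosome 12, inside the promoter window printed above. The first exon of Hif1a-201 holds 35 coding bases, chr12:73908290-73908324 on the plus strand of GRCm38, that Hif1a-202 lacks. They are shown, with the start codon in capitals, because they are coding in Hif1a-201 and are no part of Hif1a-202.
Hif1a-201, coding bases of the first exon: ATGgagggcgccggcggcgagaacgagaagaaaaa

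Hif1a-201 took 38.2, 58.3 and 47.9% of the reads of the gene in Tet2+/+ mice 19, 23 and 24. In Tet2-/- mice 5, 7 and 8 it took 58.0, 41.0 and 44.8%. The genotypes overlapped, and either transcript could be the larger within each genotype. The mean share was 48.1 ± 10.0% (SD, n = 3) in Tet2+/+ and 47.9 ± 8.96% (SD, n = 3) in Tet2-/- mice (exact permutation test, two-sided, p = 0.9, adjusted p = 1 over 9 transcripts). Mouse 5, with the most Hif1a, had 111 CPM assigned to Hif1a-201 and 76.8 CPM to Hif1a-202, and both values were the highest of the 6 mice. Salmon assigns reads that fit both transcripts by a model, so the split rests on the first exons and the other bases in which they differ. Among these are bases of exon 11, which begins at 73941688 in Hif1a-201 and at 73941730 in Hif1a-202. Use of either start in the blasts was not tested apart from this split.

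**Figure D2:**
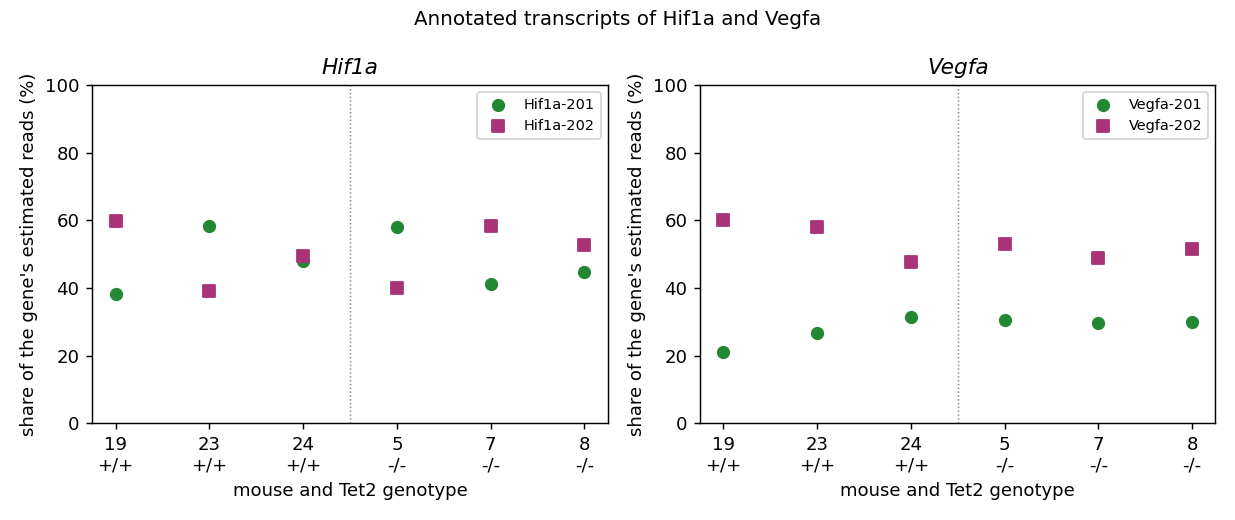
Share of the estimated reads of Hif1a (left) and Vegfa (right) given to their 2 most abundant annotated transcripts (vertical axes, percent) in each mouse, with the Tet2 genotype under the mouse number. The 2 Hif1a transcripts change places between mice of either genotype, while Vegfa-202 exceeds Vegfa-201 in every mouse.

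Each of the 3 prolyl hydroxylase genes had a log2 fold change above 0 and was highest in mouse 5, and none passed the threshold. Egln2 (chromosome 7 of GRCm38 from 27158658 to 27166802) encodes a hydroxylase that is known to be little affected by hypoxia. It had 32.4, 36.0 and 33.9 CPM in Tet2+/+ mice and 51.2, 41.7 and 38.4 CPM in Tet2-/- mice 5, 7 and 8. Every Tet2-/- mouse was above every Tet2+/+ mouse, and mouse 5 was the highest. The log2 fold change was 0.36 (SE 0.17, exact permutation p = 0.1, the smallest possible), and edgeR gave an adjusted p of 0.654. Without mouse 5 it was 0.22 (SE 0.17). It fell to 0.18 under scaling by library size alone, to 0.21 on length-scaled counts and to 0.092 with limma on log2(TPM + 1). In TPM the genotypes overlapped, with between 9.81 and 13.5 in Tet2+/+ and between 12.1 and 14.3 in Tet2-/- mice.

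Egln1 (chromosome 8 of GRCm38 from 124908587 to 124949324), the main oxygen sensor of most tissues, had 34.5, 44.7 and 36.8 CPM in Tet2+/+ mice and 51.4, 36.1 and 50.5 CPM in Tet2-/- mice 5, 7 and 8. Mice 5 and 8 were above all Tet2+/+ mice, whereas mouse 7 lay among them. Its log2 fold change was 0.25 (SE 0.20). Hif1an, which encodes the asparagine hydroxylase that blocks the transactivation domain of HIF alpha, had between 34.3 and 46.0 CPM in Tet2+/+ and between 34.1 and 42.7 in Tet2-/- mice, with a log2 fold change of -0.13 (SE 0.19).

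Egln3 (chromosome 12 of GRCm38 from 54178981 to 54203860), the hydroxylase most strongly induced by HIF itself, was split within the Tet2-/- group. It had 36.8, 48.3 and 34.6 CPM in Tet2+/+ mice and 76.1, 26.7 and 24.5 CPM in Tet2-/- mice 5, 7 and 8. Mouse 5 was above every Tet2+/+ mouse and mice 7 and 8 were below every one of them. The means were 39.9 ± 7.37 (SD, n = 3) and 42.4 ± 29.1 (SD, n = 3), with a log2 fold change of 0.092 (SE 0.45), which was -0.077 under scaling by library size alone. Without mouse 5 the log2 fold change was -0.64 (SE 0.22), with an unadjusted p of 0.0273 and an adjusted p of 0.607 by edgeR. The means were close although no Tet2-/- mouse lay within the range of the Tet2+/+ mice.

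Vhl (chromosome 6 of GRCm38 from 113623959 to 113631633), the substrate adaptor that recognises hydroxylated HIF alpha, had 43.7, 27.8 and 34.9 CPM in Tet2+/+ mice and 34.3, 55.9 and 35.9 CPM in Tet2-/- mice 5, 7 and 8. Only mouse 7 lay above the control range. The log2 fold change was 0.25 (SE 0.26), and -0.013 without mouse 7. Of the elongins of the VHL ligase, Eloc encodes elongin C, which binds VHL, and its log2 fold change was 0.17 (SE 0.15) with overlapping genotypes. Elob, which encodes elongin B, the partner of elongin C, had 52.0, 53.6 and 39.8 CPM in Tet2+/+ mice and 85.2, 72.2 and 78.2 CPM in Tet2-/- mice 5, 7 and 8. These values did not overlap, with a log2 fold change of 0.70 (SE 0.18), an unadjusted p of 0.00516 and an adjusted p of 0.396 by edgeR. Elob passed the threshold in DESeq2 with both kinds of counts, where 0.266% and 0.287% of all genes were called higher.

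In the fit of all 6 mice the hypoxia targets Vegfa, Ndrg1 and Bnip3 had the largest fold changes of the 10 genes. Epas1, with a log2 fold change of 0.53 (SE 1.03), was close to Bnip3 at 0.57. The order changed with 1 mouse left out. Without mouse 24 Epas1 had 1.42 against 0.94 for Vegfa, without mouse 7 Vegfa had 0.27 against 0.40 for Egln1, and without mouse 5 Bnip3 had 0.31 against 0.37 for Vhl. Ndrg1 (chromosome 15 of GRCm38 from 66929318 to 66969640), a stress-responsive gene of growth arrest and differentiation that is widely used as a hypoxia marker, had 86.1, 122 and 80.4 CPM in Tet2+/+ mice and 155, 130 and 184 CPM in Tet2-/- mice 5, 7 and 8. The lowest Tet2-/- mouse was just above the highest Tet2+/+ mouse, and mouse 8, not mouse 5, was the highest. The means were 96.1 ± 22.4 (SD, n = 3) and 156 ± 26.8 (SD, n = 3), a fold of 1.62 with a log2 fold change of 0.70 (SE 0.22). The unadjusted p was 0.0166 and the adjusted p 0.539 by edgeR, so it did not pass the threshold. The unadjusted p was 0.0816 under scaling by library size alone, 0.0624 without mouse 19 and 0.0666 without mouse 24. Without mouse 5 the log2 fold change was the same, 0.70 (SE 0.26), and over the 6 fits that leave out 1 mouse it lay between 0.57 and 0.89. Most of its reads, between 87.9% and 92.0%, were assigned to the transcript Ndrg1-201 in every mouse. An antisense gene inside it, Gm17035, was given 91 reads in mouse 5, 29 in mouse 7 and 0 in the other mice, and since the kit is taken not to mark strand, its reads and those of Ndrg1 cannot be told apart.

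The relatives of Ndrg1 did not share its pattern. Ndrg3 had between 36.2 and 43.0 CPM in Tet2+/+ and between 19.1 and 39.2 in Tet2-/- mice, Ndrg2 had between 0.977 and 7.06 CPM over the 6 mice, and Ndrg4 had too few reads to be tested.

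Bnip3 (chromosome 7 of GRCm38 from 138890836 to 138909519) encodes a mitochondrial protein that HIF1A induces and that marks mitochondria for autophagy. It had 17.8, 23.8 and 18.9 CPM in Tet2+/+ mice and 39.2, 22.5 and 27.8 CPM in Tet2-/- mice 5, 7 and 8. Mice 5 and 8 were above the control range and mouse 7 was within it. The log2 fold change was 0.57 (SE 0.26), with an unadjusted p of 0.0612 by edgeR, and 0.31 (SE 0.23) without mouse 5. Bnip3l, its relative with a role in clearing mitochondria from red cell precursors, had between 173 and 212 CPM in Tet2+/+ mice and 169, 333 and 155 CPM in mice 5, 7 and 8, with a log2 fold change of 0.15 (SE 0.31). Here mouse 7 and not mouse 5 stood out.

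Vegfa (chromosome 17 of GRCm38 from 46016993 to 46032369), the angiogenic growth factor, varied widely between mice of both genotypes. It had 72.3, 28.1 and 73.2 CPM in Tet2+/+ mice and 98.0, 150 and 40.6 CPM in Tet2-/- mice 5, 7 and 8. Mice 5 and 7 were above the control range and mouse 8 was within it. The means were 57.9 ± 25.8 (SD, n = 3) and 96.2 ± 54.7 (SD, n = 3), with a log2 fold change of 0.73 (SE 0.53) and an adjusted p of 0.767 by edgeR. Beside these values, the mature neutrophil markers S100a8, S100a9, Mmp8, Mmp9, Cxcr2 and Ltf had a summed level of 80725, 17818 and 62223 TPM in mice 19, 23 and 24 and 85768, 158661 and 37357 TPM in mice 5, 7 and 8. For none of the 6 markers did the genotypes separate, all 6 were highest in mouse 7 and lowest in mouse 23, and none was near 0. In the sum, of which S100a8, S100a9 and Ltf make up most, mice 23 and 8 were the lowest and mice 5 and 7 the highest, as for Vegfa. Single markers departed from that order, with Mmp9 at 148 TPM in mouse 5 against 321 and 386 TPM in mice 19 and 24, and Ltf at 15597 TPM in mouse 5 against 27135 TPM in mouse 19. The part of neutrophils in the Vegfa values was not tested.

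**Figure D3:**
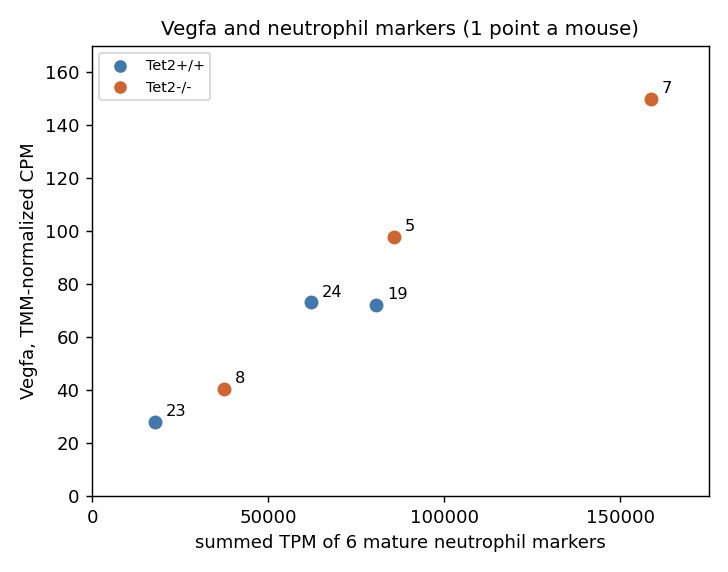
Vegfa in TMM-normalized CPM (vertical axis) against the summed TPM of 6 mature neutrophil markers (horizontal axis), 1 point a mouse, with Tet2+/+ mice in blue and Tet2-/- mice in orange. Mouse 23 is lowest and mouse 7 highest on both axes, and the genotypes overlap on both.

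Vegfa-202 and Vegfa-201 took the largest shares of the Vegfa reads. In TPM, which weighs short transcripts more, Vegfa-202 had only 6.04 of the 33.5 TPM of the gene. Besides their starts, they differ by a coding exon of 132 bases, chr17:46020991-46021122 on the minus strand of GRCm38, which belongs to the heparin-binding part of the growth factor and is known to hold the secreted protein near the cell surface and to the co-receptor neuropilin. The exon is shown in capitals after the last 30 bases of the preceding exon, which both transcripts share, at chr17:46024065-46024094.
Vegfa-202, end of the shared exon and the additional exon: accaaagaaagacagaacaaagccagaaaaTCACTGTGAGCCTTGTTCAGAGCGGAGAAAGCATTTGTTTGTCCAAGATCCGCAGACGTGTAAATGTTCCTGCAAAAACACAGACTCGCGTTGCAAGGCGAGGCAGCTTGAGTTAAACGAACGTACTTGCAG

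Vegfa-202, with this exon, took 60.1, 57.9 and 47.7% of the reads of the gene in Tet2+/+ mice and 53.0, 48.8 and 51.5% in Tet2-/- mice 5, 7 and 8. Vegfa-201, without it, took 21.0, 26.6 and 31.4% against 30.4, 29.6 and 29.8%. The longer form was above the shorter one in 6 of 6 mice, and both shares overlapped between genotypes. The difference in the share of Vegfa-202 was -4.12 percentage points (exact permutation test, two-sided, p = 0.4, adjusted p = 0.9 over 9 transcripts). Of the 9 transcripts tested, 0 had an exact p under 0.3.

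Of the other VEGF genes, Flt1, Nrp1 and Vegfb had a mean of over 2 CPM in both genotypes. Flt1, which encodes VEGF receptor 1 and is known from monocytes as well as endothelium, had 5.44, 0.535 and 1.13 CPM in Tet2+/+ mice and 10.6, 5.92 and 8.25 CPM in Tet2-/- mice 5, 7 and 8. The genotypes did not overlap, although mouse 19 came close to mouse 7, and in TPM they did overlap, with 0.995 in mouse 19 against 0.478 in mouse 7. Its log2 fold change of 1.80 (SE 0.81) had an adjusted p of 0.632 by edgeR. Nrp1, the neuropilin co-receptor, had between 17.5 and 53.8 CPM over the 6 mice, and the genotypes overlapped. Kdr, the main endothelial VEGF receptor, had 24 reads in mouse 7 and at most 2 in each of the other mice. Of the further ligands, Vegfb had between 3.73 and 7.21 CPM over the 6 mice, and Vegfc at most 16 reads in a mouse.

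Mouse 5 was the highest of the 6 mice for 6 of the 10 genes, Hif1a, Epas1, Egln1, Egln2, Egln3 and Bnip3, whereas it was the highest for 15.5% of all genes tested and for 18.3% of those with a mean of at least 1 CPM. Mouse 7 was the highest for Arnt, Vhl and Vegfa and mouse 8 for Ndrg1, so that for each of the 10 genes the highest mouse was a Tet2-/- mouse, beside 55.7% of all genes tested and 63.6% of those with a mean of at least 1 CPM. As the mean log2 deviation of 9 genes, Epas1 left out, mice 19, 23 and 24 were at -0.18, -0.16 and -0.17 and mice 5, 7 and 8 at 0.46, 0.11 and -0.058. Mouse 5 lay far above the rest, and mouse 8 was nearer to the Tet2+/+ mice than to mouse 5. Without mouse 5 the median log2 fold change of the 10 genes was 0.19 in place of 0.39, with 7 of 10 above 0, beside a median of -0.018 for all genes. Mouse 5 also had the deepest library, and the part of depth in these values was not tested.

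**Figure D4:**
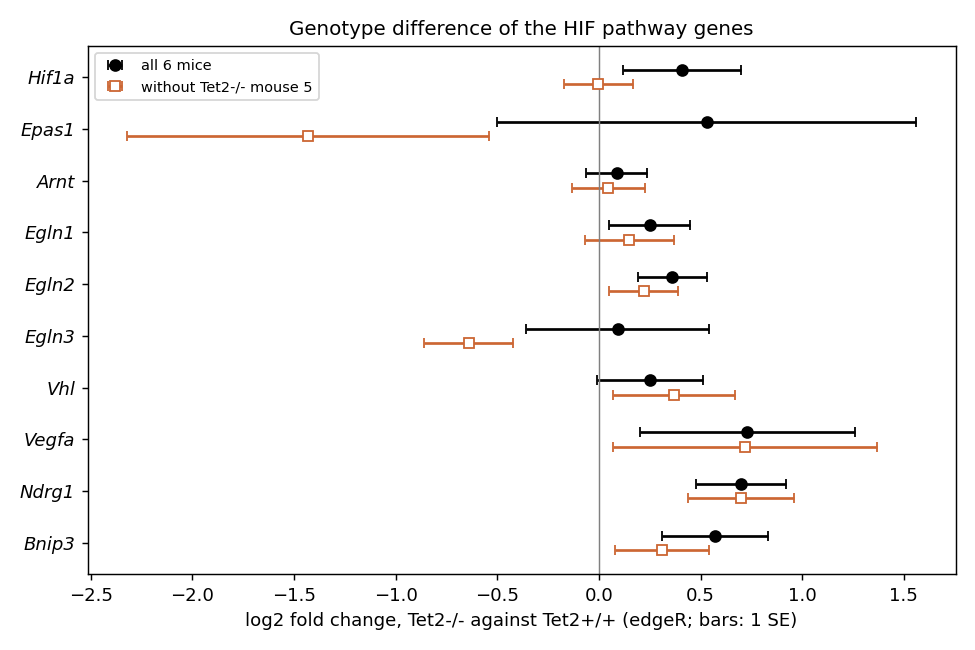
Log2 fold changes of Tet2-/- against Tet2+/+ blasts from edgeR (horizontal axis) with 1 SE, from all 6 mice (filled circles) and without Tet2-/- mouse 5 (open squares), for the 10 genes. Ndrg1 and Vegfa stay near 0.7, Hif1a falls to 0, and Epas1 and Egln3 change sign.

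Around these genes, 82 other genes of the pathway were listed by role, of which 76 had enough reads. With edgeR 0 of the 76 passed the threshold, and 14 were higher and 0 lower at an unadjusted p under 0.05, where 664 of all 22170 genes were higher and 1135 lower. These counts were 7 and 2 under scaling by library size alone, 8 and 0 with limma on log2(TPM + 1), 6 and 0 with limma on log2(TPM + 0.1), 9 and 3 without mouse 5, 5 and 0 without mouse 23, and 3 and 1 without mouse 24. Their median log2 fold change was 0.24, and 17 were higher and 2 lower without overlap between genotypes, beside 6.41% and 7.94% of all genes. DESeq2 on the same counts called 4 of the 76, Pkm, Gapdh, Plin2 and Elob, all higher, beside 0.266% of all genes, and on length-scaled counts it called Gapdh and Elob, beside 0.287%. Of these 4, Pkm and Gapdh are enzymes of glycolysis, the textbook output of HIF1A, while Plin2 coats lipid droplets and Elob belongs to the VHL ligase. Of 19 glycolytic targets 16 had a log2 fold change above 0 with a median of 0.55, 10 were higher without overlap, and 8 were higher at an unadjusted p under 0.05. Without mouse 5 the median of the 19 was 0.37 and 17 were above 0. The remaining 57 genes tested had a median of 0.15, with 7 higher and 2 lower without overlap, and a median of -0.093 without mouse 5. Under scaling by library size alone the median was 0.076 for the 76 genes, with 42 above 0 in place of 48, 0.38 for the glycolytic targets and -0.027 for the remaining 57. The 16 further regulators of HIF had a median of -0.067, with 7 above 0 and 9 below.

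Pkm, which encodes the pyruvate kinase of the last step of glycolysis, had 1877, 1472 and 1300 CPM in Tet2+/+ mice and 2566, 2642 and 2706 CPM in Tet2-/- mice 5, 7 and 8. The 3 Tet2-/- values lay close together and above all controls, with a log2 fold change of 0.77 (SE 0.24) and an adjusted p of 0.527 by edgeR. Slc16a3, the lactate exporter of glycolytic cells, had between 66.9 and 107 CPM against 171, 205 and 133 CPM, with a log2 fold change of 0.89 (SE 0.25) and an adjusted p of 0.462 by edgeR. Ero1l, an oxidase of protein folding that HIF1A induces, had 273, 132 and 185 CPM against 367, 416 and 307 CPM, with a log2 fold change of 0.89 (SE 0.29). Eno1, the glycolytic enolase, had 1122, 785 and 652 CPM against 1536, 1285 and 1392 CPM, with a log2 fold change of 0.72 (SE 0.26). That every Tet2-/- mouse was above every Tet2+/+ mouse in these genes was a condition of the rule that named them. Enolase and other glycolytic genes have near-identical pseudogene copies, between which Salmon divides reads.

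In the other direction, Car9, the carbonic anhydrase often used as a marker of HIF1A activity, was lower without overlap on the CPM scale. It had 9.15, 10.1 and 9.86 CPM in Tet2+/+ mice and 7.21, 6.94 and 6.84 CPM in Tet2-/- mice 5, 7 and 8. Its log2 fold change was -0.47 (SE 0.23), with an unadjusted p of 0.0784 by edgeR. In TPM the genotypes overlapped, with 4.36 in mouse 19 against 7.57 in mouse 7. Of the other classic targets Epo, Adm and Edn1 had too few reads to be tested.

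Summed markers of other cells are given beside these values, and no marker gene passed the threshold of edgeR. The 6 monocyte and macrophage markers summed to between 1643 and 2398 TPM in Tet2+/+ and between 2777 and 3779 in Tet2-/- mice without overlap. Of the 6, only Ly6c2 separated the genotypes, beside 6.41% of all genes, and none was at 0. Ly6c2 made up most of the sum, and without it the other 5 summed to between 173 and 367 TPM in Tet2+/+ and between 141 and 444 in Tet2-/- mice. The 6 basophil and mast cell markers summed to between 189 and 290 TPM in Tet2+/+ and between 18.1 and 69.4 in Tet2-/- mice, with 1 of the 4 tested separating the genotypes and Prss34 and Fcer1a under 10 reads in every mouse. That gene was Cpa3, which made up most of the sum. Mcpt8 was also lower on average, at 5.25 CPM in Tet2-/- against 10.5 CPM in Tet2+/+ mice. Its log2 fold change was -0.99 and its genotypes overlapped, while Ms4a2 and Gzmb had log2 fold changes of 0.48 and -0.079. The sums were also lower without overlap for the B and plasma cell markers, although the sort was set against B220+ cells, between 27.1 and 50.9 TPM in Tet2-/- against between 95.6 and 157 in Tet2+/+ mice, and for the megakaryocyte and platelet markers, between 6.81 and 10.8 against between 15.3 and 25.1 TPM. Single genes separated the genotypes in 1 of 7 B and plasma cell markers, Jchain, and in 1 of 5 tested megakaryocyte markers, Itga2b, beside 7.94% of all genes, while Cd79b and Gp9 had log2 fold changes above 0. Without Jchain the B and plasma cell sums overlapped, with between 13.9 and 54.3 TPM in Tet2+/+ and between 11.7 and 27.4 in Tet2-/- mice, and so did the megakaryocyte sums without Itga2b. The sums of T and NK cell markers and of plasmacytoid dendritic cell markers overlapped. In each of these lists 1 gene was lower without overlap, Ncr1 of 6 (fold 0.230) and Siglech of 4 (fold 0.187), beside the same 7.94% of all genes. The part of these cells in the values of Ndrg1, Flt1 and the glycolytic genes was not tested.

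**Figure D5:**
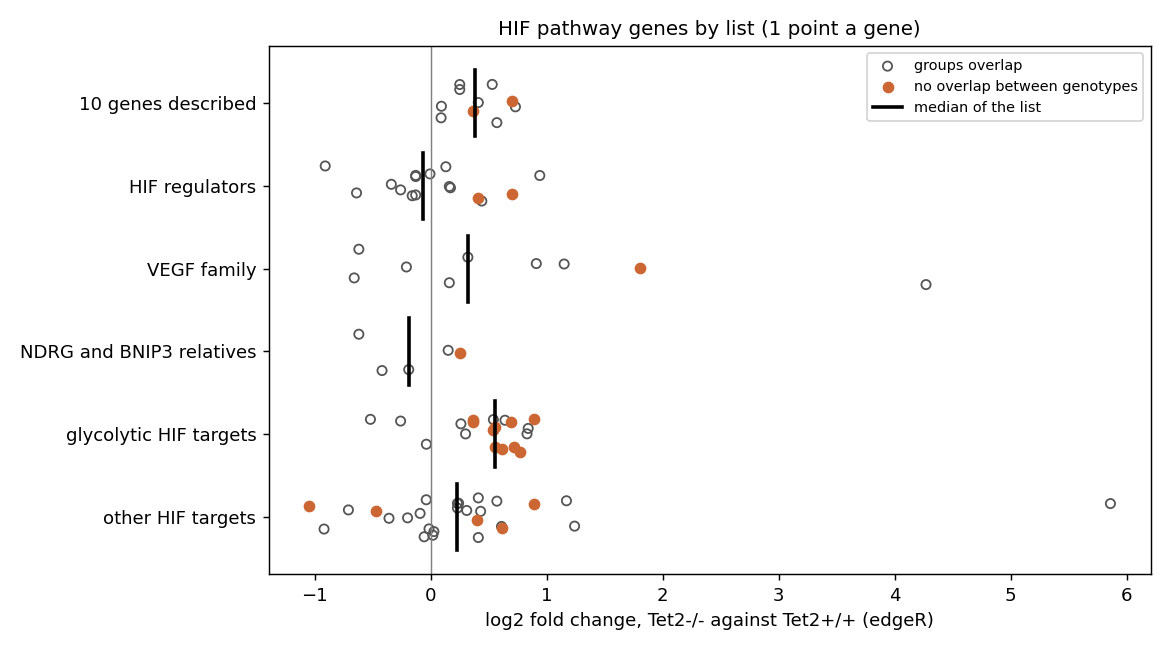
Log2 fold changes of Tet2-/- against Tet2+/+ blasts (horizontal axis) for the 10 genes and for the tested genes of 5 other lists of the HIF pathway, 1 point a gene, filled where the values of the genotypes do not overlap, with a bar at the median of each list. The glycolytic targets have the highest median, 0.55, and the other regulators of HIF lie on both sides of 0.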

How the data were processed

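RNA-seq of AML blasts from 3 Cebpa-/p30 Tet2+/+ and 3 Cebpa-/p30 Tet2-/- mice was analysed. Per the study's methods, libraries made with a TruSeq RNA kit were sequenced on a NextSeq 500, and transcripts of GRCm38 were quantified through bcbio. That kit is generally known as one that does not mark strand. The submitters' processing notes name Salmon 0.12.0. The estimated count and the TPM of each of 136288 transcripts are the Salmon output that the authors deposited, and the estimated count is not normalized between mice. Other deposited columns of transcript length were not used as measurements.

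Estimated counts were summed to GENCODE M21 genes in Python 3.11.15 (pandas 2.3.3), then rounded. The 112 transcripts without a gene held between 0.0307% and 0.0416% of the reads and were left out. Genes whose normalized counts summed to at least 10 were tested with edgeR 4.0.16 (R 4.3.3, TMM factors between 0.867 and 1.11, no covariate), with Benjamini-Hochberg adjustment over all 22170 genes. SE was derived from the log2 fold change and the F statistic. DESeq2 1.42.0, limma 3.58.1 on log2 TPM with pseudocounts of 1 and 0.1, other filters and scalings, length-scaled counts, and fits without each mouse were alternatives. The study used DESeq2 on length-scaled counts. Since the donor of each mouse is not named and separate cultures or litters are not described, p-values measure the spread between these mice. The tests were tried on simulated data.

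The 10 genes and the other lists were chosen with earlier results of these data known. Named besides the 10 genes were those past the threshold, or else up to 6 genes with the most positive and 6 with the most negative fold changes (mean CPM of 1 or more, genotypes not overlapping), plus Hif1an, Hif3a, Arnt2, Bnip3l, Flt1, Kdr, Nrp1, Vegfb and Vegfc. Only Car9 qualified on the negative side. Ndrg2, Ndrg3, Ndrg4 and genes named as called by DESeq2, as untested or as markers were added after their values were seen. Transcripts with a mean share of at least 10% were compared by an exact permutation test. Few reads were assigned to annotated genes that overlap the 10. Figures were drawn with matplotlib.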

Additional observations from a re-analysis of the deposited data

How the results depend on the processing

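No paired analysis was possible because the mice of the genotypes share no numbers. Of 169 alternative values of the 10 log2 fold changes, 156 had the direction of the value reported and 13 had the other, and 0 were called. For Arnt the log2 fold change was -0.013 with edgeR and -0.011 with DESeq2 on length-scaled counts, -0.094 with library sizes only, and -0.13 and -0.14 with limma at pseudocounts of 1 and 0.1. For Egln3 it was -0.077 with library sizes only, and -0.18 and -0.21 with limma. Epas1 had no value under filterByExpr. With 1 mouse left out, the log2 fold change lay between -0.002 and 0.62 for Hif1a, -1.43 and 1.42 for Epas1, 0.025 and 0.16 for Arnt, 0.15 and 0.40 for Egln1, 0.22 and 0.44 for Egln2, -0.64 and 0.36 for Egln3, -0.013 and 0.42 for Vhl, 0.27 and 1.10 for Vegfa, 0.57 and 0.89 for Ndrg1, and 0.31 and 0.74 for Bnip3. The log2 ratio of Epas1 to Hif1a differed by between -1.02 and 0.31.

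Called genes of all genes tested numbered 385 with DESeq2, 5 with edgeR and 386 with DESeq2 on length-scaled counts, 66 without a filter, 18 and 19 with limma at pseudocounts of 1 and 0.1, 5 among protein-coding genes, and between 0 and 7 with 1 mouse left out, against 10 in the main comparison. Of the other pathway genes DESeq2 called 4, and 2 on length-scaled counts.

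As shares of TPM, the difference was 3.02 percentage points for Hif1a-201, 2.46 for Arnt-202 and 4.28 for Egln2-201, against -0.19, -3.00 and -0.13 as shares of reads. With 1 mouse left out the differences lay between -4.24 and 6.11 for Hif1a-202, -5.25 and 4.89 for Hif1a-201, -5.32 and 1.27 for Arnt-202, -1.51 and 1.17 for Egln2-201 and -1.17 and 1.66 for Bnip3-201. The cause of these changes was not tested. Epas1 rests on too few reads for a direction.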

Other observations

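Nos2, which encodes the inducible nitric oxide synthase and is a HIF target of macrophages, was singled out after its values were seen. It had 466 reads in mouse 5 and between 1 and 3 reads in each of the other 5 mice, which is 14.7 CPM against at most 0.163 CPM. Mouse 5 was also the highest for Hmox1, the heme oxygenase, with 85.3 CPM against 51.0 CPM in mouse 8 and at most 33.2 CPM in the others. Hmox1 was picked in the same way, and neither gene passed the threshold of edgeR.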
